A study of Homo sapiens with 6 samples.

Results

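The genes of the TIRR, 53BP1 and shieldin axis were followed in U2OS, a human osteosarcoma cell line, through both assays of the series. The 10 genes were NUDT16L1, NUDT16, TP53BP1, RIF1, PAXIP1, SHLD1, SHLD2, MAD2L2, RNF8 and RNF168, and they were found by gene symbol, each with 1 Ensembl identifier, among 39020 genes listed in any table. iCLIP, in which ultraviolet light fixes RNA to a protein that touches it, had been run with FLAG antibodies on cells stably transfected with FLAG-tagged TIRR, 2 libraries from irradiated cells and 2 from untreated cells. RNA-seq had been run on wild-type cells, 1 library from irradiated and 1 from untreated cells. Irradiated cells had received 5 Gy of X-rays followed by 4 h of recovery, per the labels, although the series' design text names gamma rays for the RNA-seq arm. The labels do not say whether the FLAG-TIRR line is a clone or a pool, and empty-vector cells were not analysed here, so no background was subtracted. All 4 iCLIP libraries came from cells carrying the transgene, so NUDT16L1 counts there cannot be told apart as native or transgenic RNA.

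TIRR, the product of NUDT16L1, is a catalytically inactive relative of the Nudix hydrolases that covers the chromatin-binding Tudor domain of 53BP1 until a DNA break forms. At a break the ubiquitin ligases RNF8 and RNF168 mark histones around the lesion, 53BP1 is recruited to those marks, and its partners RIF1 and PTIP (the product of PAXIP1) then limit the trimming of DNA ends. Shieldin, which holds SHLD1, SHLD2, SHLD3 and REV7 (the product of MAD2L2), acts after RIF1 and shields the ends, favouring end joining over recombination.

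The iCLIP libraries held 400723 and 664777 counts on genes in irradiated cells, against 781997 and 799709 in untreated cells. The RNA-seq libraries held 13023903 counts on genes in irradiated and 13015406 in untreated cells. CDKN1A, a cell cycle inhibitor gene used as a check of the dose, had 8111 RNA-seq counts in irradiated and 2335 in untreated cells. Of the osteosarcoma markers, RUNX2 had 692 and 855 RNA-seq counts and VIM had 33956 and 36294 in irradiated and untreated cells, while the highest marker of another cell type, EPCAM, had 57 and 55 counts. The mesenchymal genes COL1A2 and TWIST1 had at most 6 RNA-seq counts in either library. The osteoblast genes COL1A1 and SPARC were abundant in RNA-seq but are listed in none of the iCLIP tables. They are among 1288 such genes of the 6176 with at least 1000 RNA-seq counts in both libraries together (20.9%). A gene missing from those tables was therefore treated as not analysed, not as unbound, except where assay ratios were ranked over all genes. Replicates are not stated to come from separate cultures, so the p-values cover the spread among these libraries alone, and that spread may be technical.

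None of the 10 genes passed in iCLIP after irradiation (edgeR quasi-likelihood test, Benjamini-Hochberg adjusted p from 0.213 to 0.985). Over all 9230 tested genes, 323 (3.50%) passed, 224 higher (2.43%) and 99 lower (1.07%) in irradiated libraries, or 184 higher and 132 lower when scaled by library totals. Without untreated library 1 the total was 186, 41 of them lower, and without untreated library 2 56 were lower. At an unadjusted p below 0.05 the members counted 2 of 10, TP53BP1 and NUDT16L1, against 14.5% of all tested genes. DESeq2 called 0 of the 4 members to which it gave an adjusted p and left the other 6 without one. In RNA-seq, 12977 genes reached 100 counts in one library or the other, and 1.49% of these met a size rule of 2-fold or more with the whole 95% counting interval past 1.5-fold (0.863% higher and 0.624% lower in irradiated cells). Of the 9 members with that many counts, 0 met it. Together the 10 genes took 0.0709% and 0.0787% of the iCLIP gene counts in the irradiated libraries, against 0.0738% and 0.0743% in the untreated ones. In RNA-seq they took 0.0406% of the gene counts in irradiated cells and 0.0395% in untreated cells.

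NUDT16L1 (ENSG00000168101) encodes TIRR itself and lies on chromosome 16, 4693562 to 4695859 (GRCh38.p14). It had 19 and 42 iCLIP counts in the irradiated libraries, against 25 and 32 in the untreated ones. As CPM (per-million counts, with library sizes scaled by TMM), these came to 48.9 and 64.3 in irradiated and 31.3 and 39.0 in untreated cells. Both irradiated libraries thus lay above both untreated ones in CPM, although not in raw counts. The mean was 56.6 ± 10.9 CPM in irradiated and 35.1 ± 5.50 CPM in untreated cells (SD, n = 2 each). The log2 fold change was 0.72 with a 95% interval of 0.13 to 1.31 (edgeR adjusted p = 0.213). In RNA-seq of wild-type cells NUDT16L1 had 184 counts in the irradiated and 208 in the untreated library, a ratio of 0.875 (95% counting interval 0.713 to 1.07).

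NUDT16 (ENSG00000198585), the active Nudix hydrolase most like TIRR, on chromosome 3 (131381671 to 131388830), had 6 and 11 iCLIP counts in the irradiated libraries and 9 and 4 in the untreated ones. In CPM these were 15.4 and 16.8 in irradiated and 11.3 and 4.88 in untreated cells. The groups did not overlap, but the untreated libraries lay far apart and each library rested on few counts. The log2 fold change of 1.00 carried a 95% interval of -0.20 to 2.21 (edgeR adjusted p = 0.460), the widest among the members. It was 1.68 without untreated library 1 and 0.52 without untreated library 2. RNA-seq gave 280 counts in irradiated and 294 in untreated cells, a ratio of 0.942 (0.797 to 1.11). Per kb of gene, NUDT16 had 2.99 RNA-seq CPM in irradiated and 3.17 in untreated cells, below NUDT16L1 with 6.49 and 7.42. Without the length scaling the order was reversed, at 21.4 and 22.7 CPM for NUDT16 and 14.1 and 16.1 for NUDT16L1. The listed RNA-seq lengths were 7160 bases for NUDT16 and 2166 for NUDT16L1.

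TP53BP1 (ENSG00000067369), which encodes 53BP1 and lies on chromosome 15 (43403061 to 43510640), had 64 and 99 iCLIP counts in the irradiated and 91 and 94 in the untreated libraries. In CPM the irradiated libraries had 165 and 151, and the untreated ones 114 and 115, so the groups stood apart and the untreated pair was nearly level. The log2 fold change was 0.46 with a 95% interval of 0.08 to 0.83, that is 1.37-fold (1.06 to 1.78), and it did not pass over all genes (edgeR adjusted p = 0.213). RNA-seq had 1051 counts in irradiated and 1029 in untreated cells, a ratio of 1.01 (0.926 to 1.10). TP53BP1 shares 6711 bases with TUBGCP4, which had 3 and 8 iCLIP counts in irradiated and 13 and 12 in untreated libraries, and without a stated strand setting their reads cannot be told apart in the shared stretch.

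The upstream regions of NUDT16L1 and TP53BP1 are shown because these were the members with an unadjusted iCLIP p below 0.05. Each run is the 250 bases before the gene's outermost RefSeq start (GRCh38.p14), with capitals marking a CCAAT box (CCAAT or ATTGG, so both strands).
NUDT16L1, chr16:4693312-4693561, plus strand: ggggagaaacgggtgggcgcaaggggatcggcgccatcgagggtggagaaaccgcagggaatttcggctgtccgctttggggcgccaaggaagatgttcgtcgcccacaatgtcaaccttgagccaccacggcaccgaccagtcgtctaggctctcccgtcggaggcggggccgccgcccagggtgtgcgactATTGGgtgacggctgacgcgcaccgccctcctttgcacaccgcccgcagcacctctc
TP53BP1, chr15:43510641-43510890, minus strand: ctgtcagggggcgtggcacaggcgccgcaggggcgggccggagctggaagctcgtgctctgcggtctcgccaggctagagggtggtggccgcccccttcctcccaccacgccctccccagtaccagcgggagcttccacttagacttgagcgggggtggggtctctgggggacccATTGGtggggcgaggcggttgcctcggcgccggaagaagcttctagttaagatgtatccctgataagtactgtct

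NUDT16L1 and TP53BP1 each held 1 CCAAT box, beginning 57 and 75 bases before the start. A window of this kind was present for 7 of the 10 genes, and 6 of those 7 had a CCAAT box in some annotated start's window. NUDT16 is among the 6 but had none in the window of its outermost start. Over all 35116 windows counted singly the share was 32.0%. A gene with several starts has several windows, so the count by gene and the share by window cannot be compared. These letters are a description of the windows and say nothing about binding.

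RNF8 and RNF168, the ubiquitin ligases that act before 53BP1 arrives, gave the iCLIP log2 fold changes of smallest size in the set. The irradiated libraries of RNF8 nevertheless lay far apart. RNF8 (ENSG00000112130), on chromosome 6 (37353983 to 37394734), had 59 and 137 iCLIP counts in irradiated and 150 and 139 in untreated libraries, or 152 and 209.6 CPM in irradiated and 188 and 169.6 CPM in untreated cells. Both untreated values lay between the irradiated ones, and the log2 fold change was 0.05 with an interval of -0.32 to 0.42 (edgeR adjusted p = 0.939), turning to -0.02 when scaled by library totals. RNA-seq of RNF8 had 378 counts in irradiated and 432 in untreated cells, a ratio of 0.865 (95% counting interval 0.752 to 0.996). A 7SL RNA pseudogene, RN7SL273P, lies inside RNF8, and near-identical copies of such repeats make the assignment of some reads uncertain. RNF168 (ENSG00000163961), on chromosome 3 (196468783 to 196503768), had 17 and 24 iCLIP counts in irradiated and 33 and 32 in untreated libraries. That came to 43.7 and 36.7 CPM in irradiated and 41.3 and 39.0 CPM in untreated cells, and the groups overlapped. Its log2 fold change was -0.02 with an interval of -0.64 to 0.59 (edgeR adjusted p = 0.985), and its RNA-seq ratio, from 426 counts in irradiated and 408 in untreated cells, was 1.03 (0.899 to 1.19).

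The effectors RIF1 and PAXIP1 both had lower iCLIP CPM in the irradiated libraries, without passing the test. RIF1 (ENSG00000080345), on chromosome 2 (151409902 to 151534435), had 33 and 77 iCLIP counts in irradiated and 99 and 103 in untreated libraries, or 84.9 and 118 CPM in irradiated and 124 and 126 CPM in untreated cells. One irradiated library was well below the untreated pair and the other close to it, and the log2 fold change of -0.26 had an interval of -0.68 to 0.16 (edgeR adjusted p = 0.618). In RNA-seq RIF1 lay the other way, with 1203 counts in irradiated and 1059 in untreated cells, a ratio of 1.12 (95% counting interval 1.03 to 1.22). By RefSeq positions RIF1 spans 124534 bases and shares 49097 of them with NEB, a muscle gene. The authors list 98131 bases for RIF1 in both assays, so the overlap within the span they counted is not known. NEB had 46 and 37 RNA-seq counts in irradiated and untreated cells. Its iCLIP counts were 4 and 4 in irradiated and 8 and 13 in untreated libraries. PAXIP1 (ENSG00000157212), on chromosome 7 (154943690 to 155003411), had 13 and 23 iCLIP counts in irradiated and 41 and 38 in untreated libraries. In CPM the irradiated libraries had 33.4 and 35.2 and the untreated ones 51.3 and 46.4, so each pair was tight and the groups stood apart. The log2 fold change of -0.50 had an interval of -1.10 to 0.10 and did not pass (edgeR adjusted p = 0.462). RNA-seq had 78 counts in irradiated and 100 in untreated cells, a ratio of 0.771 (0.566 to 1.05).

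The shieldin genes showed no common direction in iCLIP. SHLD2 (ENSG00000122376), which encodes the single-strand DNA binding subunit, lies on chromosome 10 (87094473 to 87191465) and had 46 and 65 iCLIP counts in irradiated and 67 and 75 in untreated libraries. Those were 118 and 99.4 CPM in irradiated and 83.8 and 91.5 CPM in untreated cells, with both irradiated libraries higher. The log2 fold change was 0.29 with an interval of -0.13 to 0.71 (edgeR adjusted p = 0.567). SHLD2 RNA-seq counts were 526 in irradiated and 457 in untreated cells, a ratio of 1.14 (95% counting interval 1.002 to 1.29). SHLD2 has pseudogene copies, SHLD2P1 and SHLD2P3, so its counts are uncertain where reads could fall on either. A 7SL RNA pseudogene, RN7SL733P, also overlaps SHLD2 by 329 bases, with the same uncertainty as for RNF8.

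SHLD1 (ENSG00000171984), a small shieldin subunit, lies on chromosome 20 (5750193 to 5864395) and had 16 and 19 iCLIP counts in irradiated and 36 and 34 in untreated libraries. In CPM the irradiated libraries had 41.2 and 29.1 and the untreated ones 45.0 and 41.5, so the groups nearly touched. The log2 fold change was -0.35 with an interval of -0.996 to 0.29 (edgeR adjusted p = 0.673). SHLD1 was scarce in RNA-seq, with 35 counts in irradiated and 32 in untreated cells, a ratio of 1.08 (95% counting interval 0.650 to 1.80). MAD2L2 (ENSG00000116670), which encodes REV7, a HORMA-domain protein shared with the translesion polymerase zeta, lies on chromosome 1 (11674480 to 11691830). It had 11 and 26 iCLIP counts in irradiated and 26 and 43 in untreated libraries, or 28.3 and 39.8 CPM in irradiated and 32.5 and 52.5 CPM in untreated cells, and the groups overlapped. Its log2 fold change was -0.27 with an interval of -0.96 to 0.42 (edgeR adjusted p = 0.784), while it was 0.10 without untreated library 2 and -0.75 with libraries thinned to equal depth. RNA-seq gave MAD2L2 1122 counts in irradiated and 1116 in untreated cells, a ratio of 0.994 (0.914 to 1.08). SHLD3, the subunit that binds REV7 and is outside the 10, had 47 RNA-seq counts in irradiated and 49 in untreated cells and is listed in none of the iCLIP tables.

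**Figure D1:**
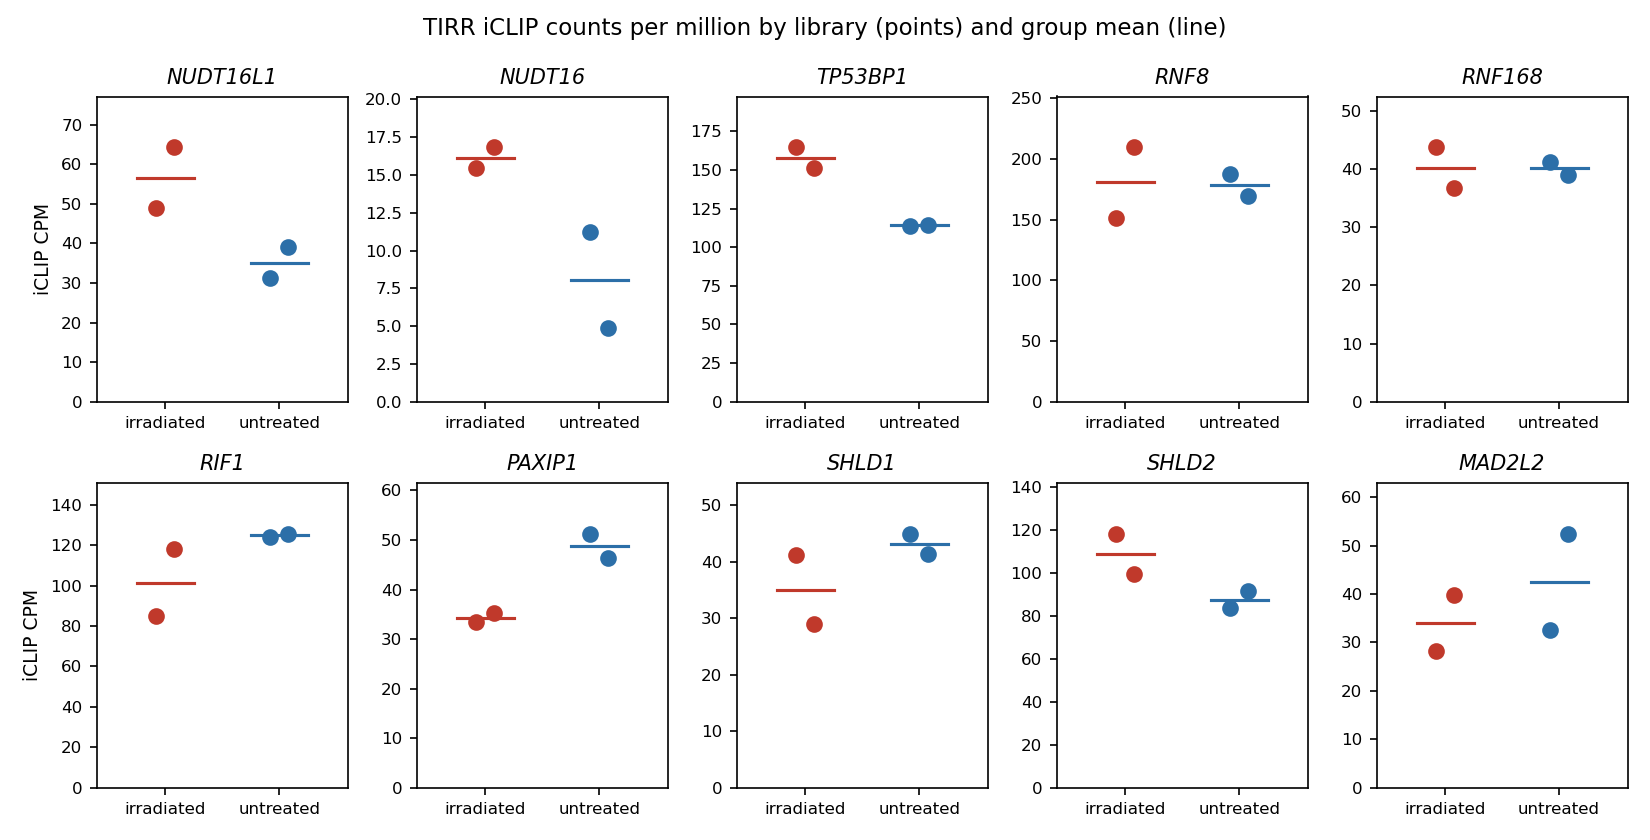
TIRR iCLIP CPM (TMM-scaled, linear axis from 0) of the 10 genes, with 1 point per library and a line at the mean of the 2 irradiated or 2 untreated libraries. NUDT16L1, NUDT16, TP53BP1 and SHLD2 had both irradiated libraries above both untreated ones, and RIF1, PAXIP1 and SHLD1 had both below, while RNF8, RNF168 and MAD2L2 overlapped.

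The iCLIP groups did not overlap in CPM for 7 of the 10 genes, 4 of them higher and 3 lower in irradiated libraries, where 44.0% of all tested genes did not overlap, 22.0% higher and 22.0% lower. The median log2 fold change of the 10 was 0.01, beside 0.00157 for all tested genes. Their iCLIP changes ran from -0.50 for PAXIP1 to 1.00 for NUDT16. Their RNA-seq log2 ratios ran from -0.37 for PAXIP1 to 0.19 for SHLD2, a narrower range, and 7 of the 10 counting intervals spanned a ratio of 1. The exceptions were RIF1 and SHLD2, whose intervals lay above 1, and RNF8, whose interval lay below it. With 1 RNA-seq library per condition, the difference between the assays was not tested.

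**Figure D2:**
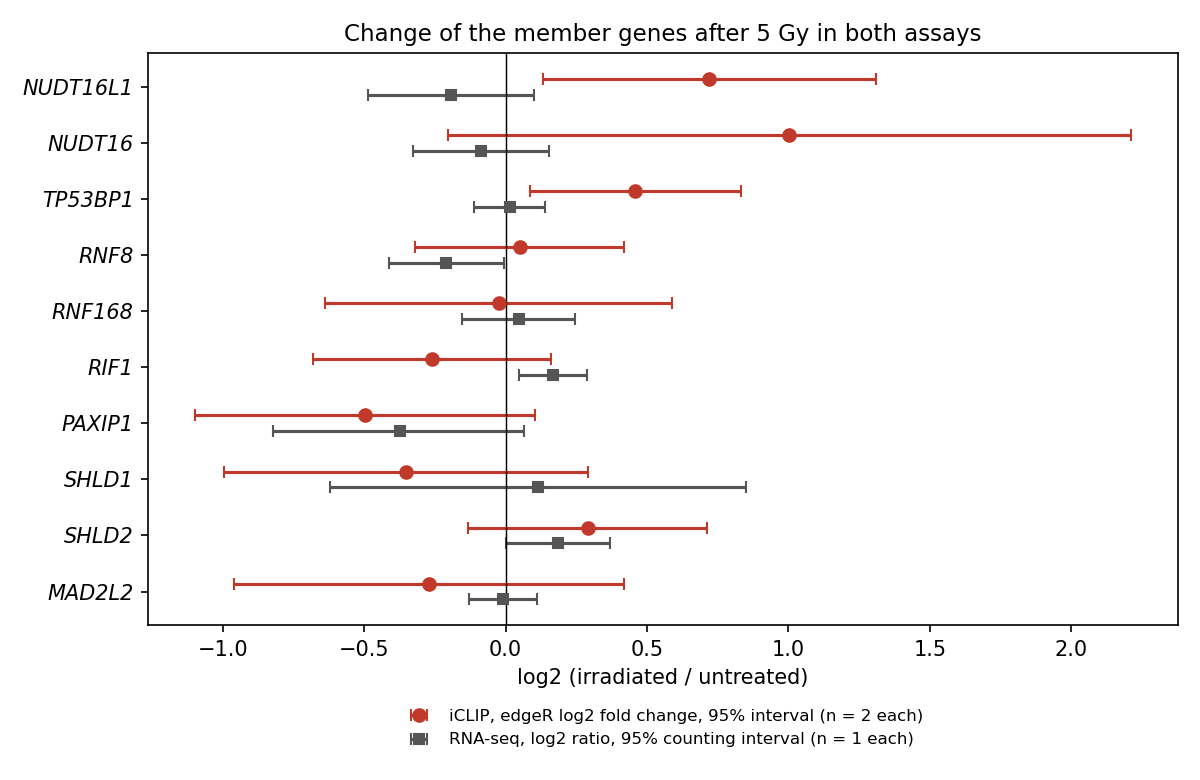
Change of each gene after 5 Gy, as log2 of irradiated over untreated. Circles are the iCLIP log2 fold changes with 95% intervals from edgeR (n = 2 each) and squares the RNA-seq log2 ratios with 95% counting intervals (n = 1 each). The iCLIP intervals of NUDT16L1 and TP53BP1 lay above 0 before adjustment, with adjusted p = 0.213 for both by edgeR, while their RNA-seq intervals spanned 0.

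Levels were compared between genes per kb of the gene length that the authors list, which spans introns. The exception was the RNA-seq CPM of NUDT16 beside NUDT16L1. In iCLIP NUDT16L1 stood highest, with 24.6 ± 4.74 CPM per kb in irradiated and 15.3 ± 2.39 CPM per kb in untreated cells (SD, n = 2 each). It lay at the 98.7th percentile of 9181 ranked genes in irradiated and the 98.0th in untreated cells. The ranked genes were those that passed the iCLIP count filter and were at least 200 bases long. NUDT16L1 had the shortest listed length in the set, 2298 bases in iCLIP, and its iCLIP counts may include transgene RNA. RNF8 came next with 4.47 ± 1.01 in irradiated and 4.41 ± 0.315 in untreated cells, at percentiles 89.4 and 90.5. Both were separated from their neighbours in the order in both conditions. In irradiated cells NUDT16 followed with 2.25 ± 0.138 CPM per kb and TP53BP1 with 1.47 ± 0.0863, each separated from the next gene. RNF168, SHLD2, MAD2L2 and RIF1 then lay between 1.15 and 1.03 CPM per kb in irradiated cells, with overlapping libraries at each step. PAXIP1 with 0.577 ± 0.0209 and SHLD1 with 0.308 ± 0.0749 came last in irradiated cells, and they were also the last in untreated cells, with 0.821 ± 0.0585 and 0.379 ± 0.0220. In untreated cells MAD2L2, RIF1, RNF168, NUDT16 and TP53BP1 lay between 1.29 and 1.06 CPM per kb, and only the step between RIF1 and RNF168 separated neighbours among these. MAD2L2 (1.29 ± 0.429) and NUDT16 (1.13 ± 0.630) had the widest spread of these genes. The median ranked gene had 0.844 CPM per kb in irradiated and 0.872 in untreated cells.

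In RNA-seq the order per kb was led by NUDT16L1, MAD2L2 and NUDT16 in both conditions. These genes also had the shortest listed RNA-seq lengths in the set. MAD2L2 had 4.99 CPM per kb in irradiated and 5.02 in untreated cells, TP53BP1 0.746 and 0.738, and RNF8 0.714 and 0.825. SHLD1 was the lowest in both, with 0.0234 CPM per kb in irradiated and 0.0217 in untreated cells, near the 6th percentile of 19308 genes (6.39 and 6.12). The authors list 2298 bases for NUDT16L1 in iCLIP and 2166 in RNA-seq, and 32894 bases for MAD2L2 in iCLIP against 17171 in RNA-seq, so the 2 tables rest on different annotations and MAD2L2 was counted over unlike spans.

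**Figure D3:**
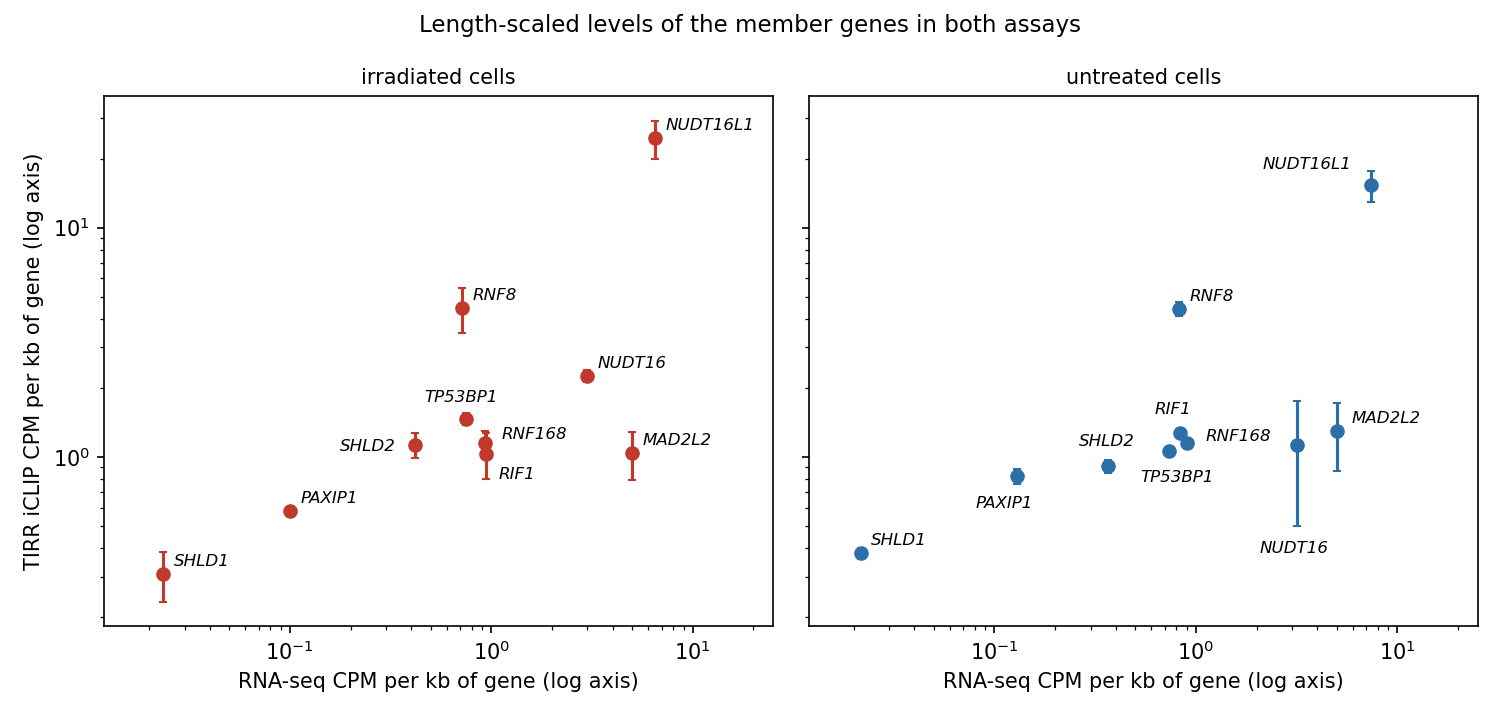
CPM per kb of gene in TIRR iCLIP (vertical log axis, mean with SD of 2 libraries) against RNA-seq (horizontal log axis, 1 library), for irradiated (left) and untreated cells (right). NUDT16L1 was highest on both axes and SHLD1 lowest on both, and RNF8 stood above genes of similar RNA-seq level such as TP53BP1 and RNF168. The FLAG-TIRR transgene was present in the iCLIP cells only.

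The share of gene counts in iCLIP was set against that in RNA-seq of the same condition, as a description without a test, since the cells differ and iCLIP counts fall on introns and exons alike. SHLD1 had the highest ratio, a log2 of 3.69 in irradiated and 4.17 in untreated cells, at percentiles 96.4 and 97.7 of 16624 genes with at least 50 RNA-seq counts. Genes missing from the iCLIP tables entered that ranking as if without iCLIP counts, which raises the percentiles of the others. Among the 12769 listed genes SHLD1 lay at percentiles 95.3 and 97.0. Its raw counts show this directly, since 36 and 34 iCLIP counts in untreated libraries stood beside 32 RNA-seq counts in a far deeper library. RNF8 had 2.61 in irradiated and 2.46 in untreated cells, and PAXIP1 had 2.52 and 2.71, all between percentiles 90.2 and 91.8. Among listed genes RNF8 lay at percentiles 88.7 and 87.2 and PAXIP1 at 87.9 and 89.3, in irradiated and untreated cells. NUDT16L1 had 1.99 in irradiated and 1.19 in untreated cells (percentiles 86.6 and 78.0), with the transgene present in the iCLIP cells only. Among listed genes its percentiles were 82.6 and 71.3. SHLD2 had 1.41 and 1.36, TP53BP1 0.94 and 0.57, RNF168 0.30 and 0.41, and RIF1 0.12 and 0.66 in irradiated and untreated cells. NUDT16 had -0.36 in irradiated and -1.35 in untreated cells, and MAD2L2 had -1.33 and -0.96. The median of the 10 was 1.18 in irradiated and 0.92 in untreated cells, beside -0.94 and -0.93 over all 16624 genes and -0.06 and -0.04 over the 12769 of them listed in an iCLIP table.

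The genes nearest to the pair at the centre of the axis over all 6 libraries, by Euclidean distance of log2 CPM, were also found. This distance compares levels in each library, and a shared response or function was not tested. For NUDT16L1 the nearest genes were PRIMPOL, a primase-polymerase gene, at a distance of 0.478, the readthrough gene ST20-MTHFS at 0.546 and the antisense RNA ZNF561-AS1 at 0.610. PRIMPOL had 15 and 39 iCLIP counts in irradiated and 22 and 28 in untreated libraries, close to those of NUDT16L1. For TP53BP1 the nearest were RNF220, a ubiquitin ligase gene, at 0.261, the mitochondrial thioredoxin reductase gene TXNRD2 at 0.372 and HTT, which encodes huntingtin, at 0.398. RNF220 had 60 and 93 iCLIP counts in irradiated and 86 and 91 in untreated libraries.

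Beyond the 10 genes, 74 further genes of the pathway were listed in 5 groups, of which 51 are listed in iCLIP and 35 were tested. A single one of the 35 passed, REV3L, a share near the 3.50% of all tested genes, so the count says nothing particular about these groups. REV3L encodes the catalytic subunit of polymerase zeta, to which REV7 also belongs, and lies on chromosome 6 (111299033 to 111483711). It had 60 and 106 iCLIP counts in irradiated and 73 and 61 in untreated libraries, or 158 ± 5.55 CPM in irradiated and 82.8 ± 11.9 CPM in untreated cells (SD, n = 2 each). REV3L rose 1.92-fold (95% interval 1.45 to 2.54, edgeR adjusted p = 0.00756), with both irradiated libraries above both untreated ones. The call was lost with DESeq2 (adjusted p = 0.0889) and without untreated library 2 (edgeR adjusted p = 0.106), with adjusted p from 6.458e-05 to 0.106 over all alternatives. In RNA-seq REV3L had 600 counts in irradiated and 346 in untreated cells, a ratio of 1.71 (95% counting interval 1.4998 to 1.96), short of the 2-fold rule. MAD2L2, its partner in polymerase zeta, had a ratio of 0.994 in the same libraries.

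REV3L was placed in a list of 11 effectors and associates of 53BP1, of which 4 were tested. Its place there was a choice made for the list, and a role of REV3L with 53BP1 was not tested. Among the others, the dynein light chain gene DYNLL1 had a log2 change of 0.19 (edgeR adjusted p = 0.799). The group's median was 0.15. Of 22 genes that mark or read breaks upstream of 53BP1, 13 were tested and 0 passed, with a median of -0.04. Those with the most iCLIP counts were the histone methyltransferase gene NSD2 with a log2 change of 0.02 (edgeR adjusted p = 0.979), which was -0.05 by library totals, the deubiquitinase gene USP3 with -0.24 (0.634) and KMT5B, which methylates the histone residue that 53BP1 reads, with 0.13 (0.842).

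Of 7 genes of the CST complex and polymerase alpha, which fill in ends after shieldin, 3 were tested and 0 passed, with a median of -0.10. The primase subunit PRIM2 had -0.36 and an unadjusted p below 0.05 (edgeR adjusted p = 0.328), POLA1 had -0.10 (0.857) and CTC1 0.03 (0.991), the last turning to -0.04 by library totals. Of 13 genes linked in either direction to end resection and recombination, processes that 53BP1 opposes, 11 were tested and 0 passed, with a median of 0.03. UIMC1, which brings BRCA1 to ubiquitin marks, had 0.06 (edgeR adjusted p = 0.930, and -0.001406 by library totals), BRCA1 -0.08 (0.917) and the nuclease gene DNA2 0.28 (0.672). Of 21 other Nudix genes 4 were tested and 0 passed, with a median of 0.20. Among them the decapping enzyme gene DCP2 had -0.11 (edgeR adjusted p = 0.899), NUDT1, which clears oxidised nucleotides, 0.20 (0.837), and NUDT9 0.20 (0.860). In RNA-seq 0 of the genes in the 5 groups passed the size rule.

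**Figure D4:**
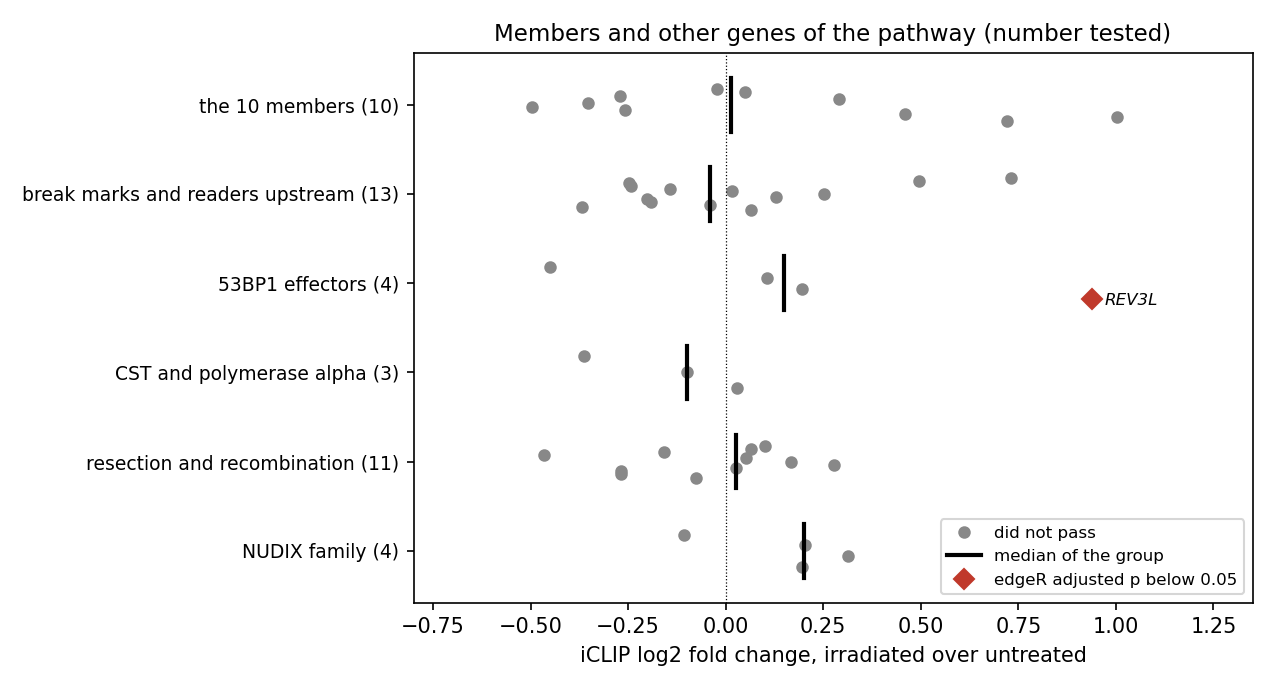
iCLIP log2 fold change, irradiated over untreated, of the 10 genes and of the tested genes in 5 other groups of the pathway, with the number tested in brackets and a bar at each group's median. REV3L, drawn as a diamond at 0.94, was the single gene with an edgeR adjusted p below 0.05.

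Genes that overlap or lie within 2000 bases of the 10 were examined by a rule chosen after the files were seen. NUDT16-DT, a noncoding RNA that starts 195 bases from NUDT16 on the other side, had 6 and 15 iCLIP counts in irradiated and 29 and 20 in untreated libraries, which gave a log2 change of -0.59 (edgeR adjusted p = 0.545). ANKS3, 651 bases from NUDT16L1, had 10 and 21 iCLIP counts in irradiated and 26 and 26 in untreated libraries, which gave a log2 change of -0.12 (edgeR adjusted p = 0.926). DRAXIN, which overlaps MAD2L2 by 5196 bases, had 384 RNA-seq counts in irradiated and 284 in untreated cells, a ratio of 1.34 (95% counting interval 1.14 to 1.56). GLUD1, which overlaps SHLD2 by 371 bases, had 1299 RNA-seq counts in irradiated and 1304 in untreated cells. Both DRAXIN and GLUD1 are listed in none of the iCLIP tables. PAXIP1-AS2, which overlaps PAXIP1 by 5801 bases, had 32 RNA-seq counts in irradiated and 58 in untreated cells, a ratio of 0.546 (0.343 to 0.854). What part such neighbours have in the counts of MAD2L2, SHLD2 and PAXIP1 was not tested.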

How the data were processed

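Each deposited table gives, per the file headers, a whole-number count of cDNAs for every gene and 1 line of intergenic counts. The authors added, per the file headers, a percent of the total with intergenic cDNAs included, and a gene length. The submitters' processing notes name hg38 and kallisto 0.44.0, without saying for which step. Duplicate removal, annotation and strand are not given in the sources. Intergenic counts (30.6% to 31.3% of iCLIP and 44.4% of RNA-seq counts) were left out.

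iCLIP libraries (2 irradiated, 2 untreated) were compared with edgeR 4.0.16 in R 4.3.3 (TMM, default filterByExpr, quasi-likelihood F test, two-sided, Benjamini-Hochberg at 0.05 over all tested genes); DESeq2 1.42.0 was an alternative. On simulated counts over 9295 genes this recovered 88% of 2-fold rises and 60% of 2-fold falls. The changed genes all had at least 20 expected counts in the smallest library, and the replicate spread was set beforehand, not fitted. NUDT16L1, NUDT16, PAXIP1, SHLD1, MAD2L2 and RNF168 had 6 to 19 counts in the smallest library, so these rates do not cover them. RNA-seq (1 library per condition) gave TMM-scaled ratios with exact conditional 95% intervals. All intervals on counts cover counting error only. Assay ratios used a prior count of 0.5. Python 3.11.15, scipy 1.17.1 and matplotlib 3.10.9 were used. Gene positions and upstream sequences are from RefSeq (GRCh38.p14). The members and lists were chosen with earlier results of these data known. Named list genes are those called, those past the RNA-seq rule and the 3 with most iCLIP counts per list. Some items are not reported here. Within each condition the replicate counts were more spread than counting alone gives (chi-square per degree of freedom 1.87 in irradiated and 1.42 in untreated libraries).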

Additional observations from a re-analysis of the deposited data

How the results depend on the processing

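No member passed under any of the alternatives run, with 1 library left out, other filters, library totals, thinning, DESeq2 or a block, over the settings that gave an adjusted p (NUDT16 was filtered out by the 20-count minimum and by thinning). The log2 change stayed positive for NUDT16L1 (0.47 to 0.97), NUDT16 (0.52 to 1.68), TP53BP1 (0.39 to 0.53) and SHLD2 (0.18 to 0.47) and negative for RIF1 (-0.55 to -0.08), PAXIP1 (-0.58 to -0.44) and SHLD1 (-0.57 to -0.07). Over all alternatives MAD2L2 ran from -0.75 (thinned) to 0.10, and from -0.59 to 0.10 with 1 library left out. With libraries left out, values ran from -0.23 to 0.23 for RNF8 and from -0.13 to 0.12 for RNF168. RNF8 also turned by library totals (-0.01584). Among the list genes, library totals gave NSD2 -0.05026, CTC1 -0.03544 and UIMC1 -0.001406, no filter gave NSD2 -0.01748, thinning gave DNA2 -0.03206 and the crossed block gave CTC1 -0.005703. With 1 library left out the range was -0.01735 to 0.05934 for NSD2, -0.2556 to 0.04005 for POLA1, -0.4548 to 0.7372 for CTC1, -0.1227 to 0.2561 for UIMC1, -0.1609 to 0.04099 for BRCA1, -0.1621 to 0.5355 for DNA2 and -0.3048 to 0.4514 for NUDT1. The causes of these turns were not tested. The counts of all genes called were 122 with DESeq2 (105 higher, 17 lower), 162 with thinning (129 and 33) and 186 to 421 with 1 library left out (145 to 289 and 41 to 132). The list gene REV3L was the 1 call and was lost (0 calls) with DESeq2 and without untreated library 2. The replicate numbers are not stated to pair libraries, and same-numbered deviations correlated at -0.139 over 6589 genes. With the replicate block 190 genes were called, 40 of them lower, and with the crossed pairing, added after seeing the data, 669 (427 higher, 242 lower). Over all counts with intergenic ones, the members' summed share was 0.0515% in irradiated and 0.0513% in untreated cells. Their median log2 assay ratio in untreated cells was then 1.24, against 0.92 over gene counts. Thinning gave an untreated share of 0.0713%. The members' counts of 4 to 150 per iCLIP library limit what could be seen.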
